A study of Mus musculus with 2 samples.

Results

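The cells described here are the Tcf7 high cells of 1 single-cell RNA library, set against the cells of the same library in which no Tcf7 transcript was seen. Cells were chosen by their Tcf7 count alone. Of 10387 RNA barcodes, 4801 had at least 2000 unique molecular identifiers (UMIs, each counting 1 captured transcript) and under 20% mitochondrial UMIs. Among these, 2335 cells had 2 or more Tcf7 UMIs (Tcf7 high, or high), 1383 cells had 0 (Tcf7 undetected, or undetected), and 1083 cells with exactly 1 were put on neither side. The cells are GD2TIF cells, that is, Cas9 transgenic mouse T cells which were activated and given a retrovirus that targets Bcor and Zc3h12a and carries the GD2 chimeric antigen receptor 14g2a. Both groups therefore share the transgene, both targets and the receptor. Per the labels' protocols, 1000000 cells were given to each immunocompetent C57BL/6 mouse, and 2 months later CD8+Thy1.1+ cells were sorted from spleen. The sources used here give neither the number of mice nor the mice's age, and they name no driver for the Cas9 transgene. The same sort was read in 1 T cell receptor (TCR) library, joined to the RNA by cell barcode.

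Tcf7 encodes TCF-1, a DNA-binding factor at the end of the Wnt pathway that is needed for T cell development. In mature CD8 T cells it marks cells that can renew themselves and give rise to memory, and it is turned down as cells become effector or terminally exhausted cells. TCF-1 works together with its relative LEF-1 and with corepressors of the TLE family, and cells that keep it typically carry lymph node homing receptors and few cytotoxic proteins.

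There is 1 RNA library, and cells are not replicates, so no test between the groups was run. Every interval is a 95% interval for counting error, and none says how mice would differ. Levels are summed UMIs of a gene per 1000000 summed UMIs (CPM), and a fold is the CPM in Tcf7 high cells over the CPM in Tcf7 undetected cells. A gene counted as higher or lower where that fold was at least 1.5 either way and the gene had at least 200 UMIs over both groups. Tcf7 high cells held a median of 2811 UMIs and 1300 genes, against 2472 UMIs and 1190 genes in Tcf7 undetected cells, and the median mitochondrial share was 3.29% in both.

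TCR sequences tell the descendants of different T cells apart, and the groups held different shares of these descendants. Below, a TRB family is the set of cells with the same nucleotide sequence in the third complementarity-determining region (CDR3) of the TCR beta chain (TRB). These are the CDR3 sequences of the families whose shares of the groups lay furthest apart, from the deposited contigs, in lower case with no part set apart.
family 1 (TRBV15, TRBJ1-1): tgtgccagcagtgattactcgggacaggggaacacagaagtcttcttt
family 2 (TRBJ2-3): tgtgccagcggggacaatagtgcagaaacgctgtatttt
family 3 (TRBV29, TRBJ1-1): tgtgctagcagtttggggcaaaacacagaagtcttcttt
family 6 (TRBV15, TRBJ2-5): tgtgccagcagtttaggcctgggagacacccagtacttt

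Tcf7 counts per cell formed 1 falling distribution. There were 901 cells with 2 Tcf7 UMIs, 612 with 3, 384 with 4, 205 with 5 and 233 with 6 or more, up to a maximum of 18. Cells just inside the threshold, with exactly 2 UMIs, had a summed Tcf7 level of 668 CPM, and cells just outside it, with 1 UMI, had 355 CPM. Together the Tcf7 high cells stood at 1042 CPM. A count of 0 is a weak statement for 1 cell, because at the median depth of the Tcf7 undetected cells it allows a level of up to 1214 CPM. If every cell had had the same Tcf7 level at its own depth, 871 cells would have shown 0 UMIs and 118 would have shown 6 or more. In 12 barcodes with at least 2 of the B cell genes Cd79a, Ms4a1, Pax5 and Fcrla, a count chosen after their values were seen for a cell type that should lack Tcf7, a Tcf7 UMI was seen in 1 (8.33%, 95% interval 0.211 to 38.5) at a median of 2327.5 UMIs. The share with a Tcf7 UMI was 71.2% of all kept cells (69.9 to 72.5) at a median of 2637 UMIs. With the looser rule of 3 or more of all 9 B cell genes listed, which takes in Ighd, Cd22 and Ebf1, 34 of 55 barcodes had a Tcf7 UMI (61.8%, 47.7 to 74.6).

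**Figure D1:**
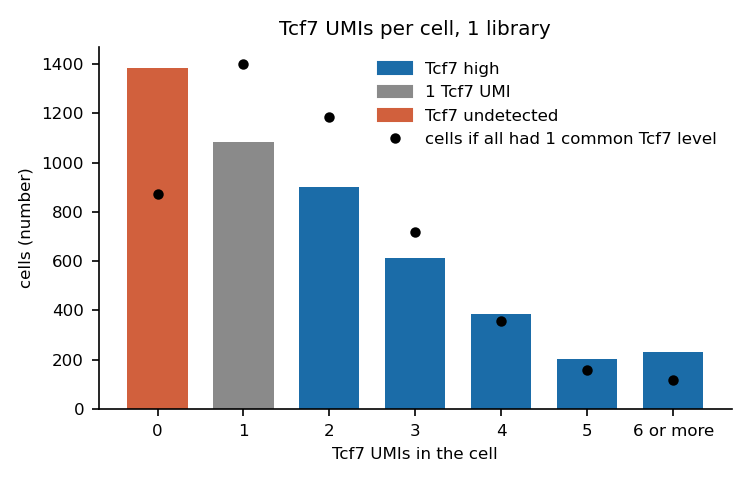
Number of cells (y axis) by Tcf7 UMIs in the cell (x axis), for the 4801 kept cells of the 1 RNA library. Bars are the cells counted, and black points are the cells that a single common Tcf7 level would give at the same depths; the bars for 0 (1383 cells) and for 6 or more UMIs (233 cells) stand above their points of 871 and 118.

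Most genes differed little between Tcf7 high and Tcf7 undetected cells, the lymphotoxin gene Ltb was among the genes past 1.5-fold higher, and the chemokine gene Ccl5 among those past it lower. Of 6529 genes with enough UMIs, 74 were at least 1.5-fold higher (1.13%) and 143 at least 1.5-fold lower (2.19%) in Tcf7 high cells. The median fold over all of these genes was 0.990. The label was set beside genes that go with Tcf7 in memory cells. The list was chosen with earlier results of these data known, so it is no independent check. Of the 15 stem and memory transcription factors, 12 had enough UMIs, all 12 had folds above 1, and 1 passed 1.5-fold. Their median fold was 1.22. Of the 72 genes past 1.5-fold that are listed or ranked, 18 were no longer past it when each cell was first thinned to 2000 UMIs, among them Bcl6 (1.27), Ass1 (1.48), Klf9 (1.43), Lag3 (0.692), Prf1 (0.752), Nr4a2 (0.667), Dusp5 (0.809), Isg15 (0.724) and AW112010 (0.690). Thinning also moved cells between the groups, with Tcf7 undetected cells going from 28.8% to 37.9%. Standardised over strata of UMIs per cell, with the groups unchanged, 70 of the 72 stayed past it. There Bcl6 was at 1.87, Ass1 at 2.02, Lag3 at 0.557 and Prf1 at 0.590.

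Lef1, the closest relative of Tcf7, stood at 388 CPM in Tcf7 high cells and 307 CPM in Tcf7 undetected cells, a fold of 1.27 (95% interval 1.18 to 1.36). Id3, an inhibitor of E protein factors that is kept in memory precursors, was at 280.4 CPM in high and 192 CPM in undetected cells (1.46, 1.34 to 1.59). Bcl6, a repressor that opposes Blimp-1, was the gene of this list past the threshold, at 44.3 CPM in high and 25.6 CPM in undetected cells (1.73, 1.38 to 2.20), with 1.27 after thinning and 1.47 from 1500 UMIs per cell. Foxp1, which keeps T cells quiescent, was at 258 CPM in high and 203 CPM in undetected cells. Klf2, which drives the genes of lymphocyte circulation, was at 2542 CPM in high and 2209.8 CPM in undetected cells, a fold of only 1.15. Eomes, a T-box factor of memory and of exhausted cells, was at 322 CPM in high and 313 CPM in undetected cells, with an interval that spans 1 (0.959 to 1.10). Myb, which sustains stem-like CD8 T cells, was just short of the UMI minimum, with 167 UMIs in high and 32 in undetected cells, a fold of 2.63 (1.79 to 3.97).

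Receptors that let T cells circulate through lymph nodes and receive survival signals lay mostly on the Tcf7 high side. Of 14 stem-like surface receptors, 12 had enough UMIs, 11 had folds above 1 and 2 passed 1.5-fold, with a median of 1.19. Ccr7, the chemokine receptor for lymph node entry, was at 69.2 CPM in high and 43.5 CPM in undetected cells (1.59, 1.33 to 1.91). Il7r, the receptor chain for the survival cytokine interleukin 7, was at 85.0 CPM in high and 54.8 CPM in undetected cells (1.55, 1.32 to 1.82). Slamf6, a common surface marker of stem-like exhausted cells, was at 486 CPM in high and 339.7 CPM in undetected cells, a fold of 1.43, and Cxcr5, the follicle homing receptor found on the same cells, was at 128 CPM in high and 89.1 CPM in undetected cells (1.44). Ly6c2, a surface protein of memory and effector cells, was the member below 1, at 49.8 CPM in high and 68.2 CPM in undetected cells. Il6ra and Izumo1r had too few UMIs for the count, with 164 and 153 UMIs in high cells and 31 of each in undetected cells.

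Other receptors lay on both sides. Cd28, the main costimulatory receptor of naive T cells, was at 98.8 CPM in high and 64.6 CPM in undetected cells (1.53, 1.32 to 1.77). Icos, its relative on activated cells, was at 383 CPM in Tcf7 high cells and 565 CPM in Tcf7 undetected cells, and Ifngr1, a chain of the interferon gamma receptor, at 83.8 CPM in high and 149 CPM in undetected cells (0.564, 0.502 to 0.633). Of 16 costimulation and cytokine receptors, 13 had enough UMIs, 1 was higher and 1 lower. Ltb, which encodes lymphotoxin beta, a membrane cytokine of naive and memory lymphocytes, was at 592 CPM in Tcf7 high cells and 324 CPM in Tcf7 undetected cells (1.83, 1.71 to 1.95).

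Wnt pathway genes and TCF-1 partners differed little. Of 20 that the matrix holds, 13 had enough UMIs, and the 1 past the threshold was Axin2, a classical target of beta-catenin and TCF factors, at 34.1 CPM in high and 20.6 CPM in undetected cells (1.66, 1.28 to 2.17). Outside the largest TRB family Axin2 was under the UMI minimum. It was at 35.1 CPM in high and 28.1 CPM in undetected cells there, with an interval of the fold that spans 1 (0.838 to 1.90). Ctnnb1, which encodes beta-catenin, was at 47.1 CPM in high and 45.1 CPM in undetected cells, and the corepressor gene Tle3 at 124 CPM in high and 122 CPM in undetected cells. The AP-1 gene Jun was at 655 CPM in high and 403 CPM in undetected cells (1.62, 1.53 to 1.72) and Fos at 497 CPM in high and 345 CPM in undetected cells. All 12 measured genes of the AP-1 and heat shock list had folds above 1, and 1 passed 1.5-fold. Of 9 measured genes that T cell receptor signals induce early, 1 was lower, the phosphatase gene Dusp5 at 32.1 CPM in high and 49.3 CPM in undetected cells (0.652), with 0.809 after thinning.

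**Figure D2:**
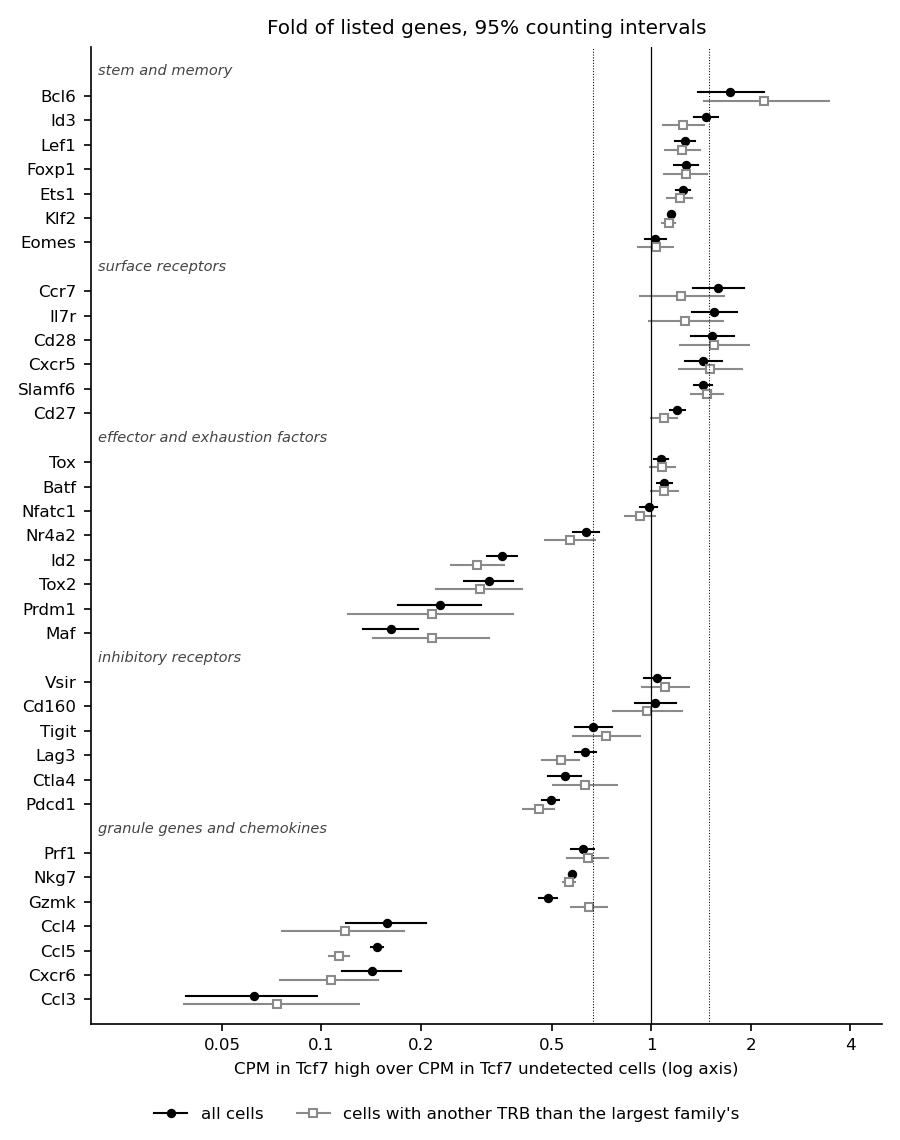
Fold of 34 listed genes (x axis, CPM in Tcf7 high over CPM in Tcf7 undetected cells, log axis), with 95% counting intervals as lines; filled circles are all cells, open squares are cells with a TRB other than the largest family's, and dotted lines mark 1.5-fold either way. In all cells the surface receptors shown lie between 1 and 2, and Tox, Batf and Nfatc1 lie near 1. Maf, Ccl5, Cxcr6 and Ccl3 lie below 0.25. The genes shown are a pick from the lists, and listed receptors below 1, such as Ly6c2, Icos and Ifngr1, are left out.

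Among the transcription factors of effector function and exhaustion, a few differed widely and most were close. Of 20 such genes, 19 had enough UMIs, 5 were lower in Tcf7 high cells and none higher, with a median fold of 0.831. Maf, a factor tied to inhibitory receptor and interleukin 10 expression, was at 18.7 CPM in Tcf7 high cells and 115 CPM in Tcf7 undetected cells (0.162, 0.133 to 0.197). Prdm1, which encodes the effector repressor Blimp-1, was at 9.43 CPM in high and 41.1 CPM in undetected cells (0.229, 0.171 to 0.305). Tox2, a relative of Tox induced by chronic stimulation, was at 29.7 CPM in high and 92.5 CPM in undetected cells (0.322). Id2, which sustains effector cells and antagonises the same E proteins as Id3, was at 79.4 CPM in high and 225 CPM in undetected cells (0.353, 0.318 to 0.393). Nr4a2, an orphan nuclear receptor of chronically stimulated cells, was the fifth, at 134 CPM in high and 212 CPM in undetected cells. The same groups had close levels of Tox, the central factor of exhaustion, at 662 CPM in high and 621 CPM in undetected cells (1.07, 1.02 to 1.12). Batf was at 619 CPM in high and 565 CPM in undetected cells, and Nfatc1 at 424 CPM in high and 432 CPM in undetected cells. The T-bet gene Tbx21, of effector cells, stood at 104 CPM in high and 87.0 CPM in undetected cells (1.20, 1.05 to 1.37).

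Inhibitory receptors also lay on both sides of 1. Of 14, 10 had enough UMIs, and 4 were lower in Tcf7 high cells. The PD-1 gene Pdcd1 stood at 269 CPM in Tcf7 high cells and 544 CPM in Tcf7 undetected cells (0.495, 0.465 to 0.526). Lag3, a receptor for MHC class II, was at 215 CPM in high and 342 CPM in undetected cells (0.629), Ctla4, which competes with CD28 for its ligands, at 78.5 CPM in high and 144 CPM in undetected cells (0.545), and Cd200r1 at 19.4 CPM in high and 32.4 CPM in undetected cells (0.598). Vsir, which encodes VISTA, was at 194 CPM in high and 187 CPM in undetected cells, and Cd160 at 77.8 CPM in high and 75.9 CPM in undetected cells. Havcr2 and Entpd1, genes of late exhaustion, were under the UMI minimum and had fewer UMIs in Tcf7 high than in Tcf7 undetected cells. Havcr2, which encodes TIM-3, had 6 UMIs in Tcf7 high cells and 81 in Tcf7 undetected cells, a fold of 0.0373 (0.0133 to 0.0848), and the ectonucleotidase gene Entpd1 had 5 UMIs in high and 36 in undetected cells.

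Chemokine genes were among those with the lowest folds. Ccl5, a chemokine stored by memory and effector CD8 T cells, was at 346 CPM in Tcf7 high cells and 2347 CPM in Tcf7 undetected cells (0.147, 0.141 to 0.154). It was concentrated in few cells of both groups. The 5% of cells richest in it held 59.6% of the Ccl5 UMIs of Tcf7 undetected cells and 61.9% of those of Tcf7 high cells. Cells with 10 or more Ccl5 UMIs made up 2.01% of Tcf7 high cells (1.48 to 2.67) and 14.9% of Tcf7 undetected cells (13.1 to 16.9). Cxcr6, a homing receptor of tissue and effector cells, was at 16.1 CPM in high and 113 CPM in undetected cells (0.142, 0.115 to 0.175). The inflammatory chemokine genes Ccl3 and Ccl4 were at 3.05 CPM in high and 48.7 CPM in undetected cells and at 9.29 CPM in high and 59.0 CPM in undetected cells. Of 12 cytokine and chemokine genes, 8 had enough UMIs, 3 were lower and Ltb was higher. Cxcr6 was the 1 lower gene among 10 measured homing and adhesion genes.

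The granule genes past 1.5-fold lower differed by smaller factors than Ccl5. Of 13, 9 had enough UMIs and 4 were lower in Tcf7 high cells, with a median of 0.809. Nkg7, needed for the release of cytotoxic granules, was at 1940.0 CPM in Tcf7 high cells and 3373 CPM in Tcf7 undetected cells (0.575, 0.562 to 0.589). Gzmk, the granzyme of early memory and pre-exhausted cells, was at 253 CPM in high and 520.4 CPM in undetected cells (0.486). Perforin (Prf1) was at 169 CPM in high and 273 CPM in undetected cells (0.618), and Ctla2a, a cathepsin inhibitor gene, at 107 CPM in high and 235 CPM in undetected cells (0.455). Srgn, the proteoglycan core of granules, and Ctsw, a cathepsin of cytotoxic cells, were near equal at 533 CPM in high and 525 CPM in undetected cells and at 399.6 CPM in high and 394 CPM in undetected cells. Gzmb and Fasl, the granzyme and death ligand of full effector cells, had 18 and 38 UMIs in high cells and 130 and 117 in undetected cells.

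A small set of cells held at least 2 genes of a chemokine, homing and granule set. Whether these genes occur together more often than their levels give was not tested. Cells with at least 2 of Ccl3, Ccl4, Cxcr6 and Gzma, a count chosen after their values were seen, were 10 of 2335 Tcf7 high cells (0.428%, 0.206 to 0.786) and 55 of 1383 Tcf7 undetected cells (3.98%, 3.01 to 5.15). Thinned to 2000 UMIs each, the shares were 0.171% of high and 3.40% of undetected cells. With these cells left out, Ccl5 stood at 0.197 and Id2 at 0.429 of the level in Tcf7 undetected cells, Pdcd1 at 0.533 and Nkg7 at 0.607. Of the genes that define these cells, Ccl3 was at 0.181, Cxcr6 at 0.187 and Ccl4 at 0.803. Since the cells are chosen by genes with low folds, their smaller share among Tcf7 high cells restates those folds.

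Beyond the lists, the 20 genes with the highest folds included the following. Crisp3, a secreted cysteine-rich protein gene, was at 32.7 CPM in Tcf7 high cells and 10.3 CPM in Tcf7 undetected cells (3.18, 2.26 to 4.58), and in cells thinned to 2000 UMIs its fold was 1.49. Prg4, which encodes the lubricant proteoglycan lubricin, was at 28.7 CPM in high and 12.4 CPM in undetected cells (2.32). Ass1, an enzyme that makes the precursor of arginine, was at 58.4 CPM in high and 28.99 CPM in undetected cells (2.02). Aff3, a nuclear factor of transcription elongation complexes, was at 90.9 CPM in high and 48.2 CPM in undetected cells. Slfn5, of the schlafen family, was at 47.4 CPM in high and 25.6 CPM in undetected cells, and Klf9, a Kruppel-like factor induced by glucocorticoids, at 25.8 CPM in high and 14.0 CPM in undetected cells. Xcr1, the receptor for the chemokine XCL1, was at 25.1 CPM in high and 14.5 CPM in undetected cells. At the other end, the 15 lowest folds included Coch at 19.8 CPM in high and 127 CPM in undetected cells (0.156) and Serpine2, a protease inhibitor, at 16.5 CPM in high and 96.7 CPM in undetected cells (0.138 to 0.209 of the level in Tcf7 undetected cells). Adam19, a membrane metalloprotease, was at 39.0 CPM in high and 116 CPM in undetected cells.

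A pair of the lowest folds moved with barcodes that hold B cell genes. Cd74 and H2-Aa, genes of MHC class II antigen presentation, were at 32.8 CPM in high and 289 CPM in undetected cells and 5.44 CPM in high and 49.0 CPM in undetected cells. The 12 barcodes with B cell genes held 1201 of the 1385 Cd74 UMIs of all kept cells, and 11 of the 12 had no Tcf7 UMI. Without them and a haemoglobin-rich barcode, the Cd74 fold was 1.03 and that of H2-Aa 0.584. Haemoglobin genes were likewise lower through 1 barcode with no Tcf7 UMI, which held 3138 of 3295 haemoglobin UMIs. Of the summed markers, the 9 B cell genes stood at 232 CPM in Tcf7 high cells and 266 CPM in Tcf7 undetected cells, most of it Ighd (112 CPM in high and 101 CPM in undetected cells) and Cd22 (86.4 CPM in high and 69.8 CPM in undetected cells), while the defining gene Pax5 had 0 UMIs in high and 6 in undetected cells. The myeloid list was at 220.1 CPM in high and 277 CPM in undetected cells, of which Cst3 (110.5 CPM in high and 150.5 CPM in undetected cells) and Ctss (91.3 CPM in high and 90.1 CPM in undetected cells) made up most, and the defining genes Lyz2 and Csf1r had 1 UMI each in high and 0 in undetected cells. Natural killer markers were at 11.2 CPM in high and 5.27 CPM in undetected cells and CD4 or regulatory T cell markers at 34.7 CPM in high and 30.3 CPM in undetected cells. Barcodes with 3 or more markers of any other type were 34 of 2335 Tcf7 high cells (1.46%, 1.01 to 2.03) and 34 of 1383 Tcf7 undetected cells (2.46%, 1.71 to 3.42). Without the 12 B cell barcodes and the haemoglobin-rich one, 78 genes were higher and 137 lower.

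Genes common to all of these T cells set a scale for the differences. The CD8 genes Cd8a and Cd8b1 were at 207 CPM in high and 222 CPM in undetected cells and 397 CPM in high and 422 CPM in undetected cells. None of 14 genes of the TCR complex and its signalling passed 1.5-fold, and Cd3g was furthest from 1, at 744 CPM in high and 1043 CPM in undetected cells (0.713). Transcripts of the targeted genes were close between the groups, with Bcor at 180.4 CPM in high and 158 CPM in undetected cells and Zc3h12a, which encodes Regnase-1, at 46.1 CPM in high and 51.4 CPM in undetected cells. Edited alleles can still be transcribed, and the levels say nothing of editing.

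To see the differences without the gap in depth, each cell was thinned to 2000 UMIs and placed by its remaining Tcf7 UMIs, which gave 1819 cells with 0, 1306 with 1, 889 with 2 and 787 with 3 or more. Ccl5 was at 1877, 523, 364 and 232 CPM in this order, and most of the gap lay between 0 and 1 UMI. Pdcd1 was at 474, 286, 238 and 250.3 CPM, Id2 at 191, 103, 82.1 and 71.8, and Maf at 97.9, 29.9, 19.1 and 17.2. In the same order Ltb stood at 369, 529.9, 600.1 and 651 CPM, and Slamf6 at 373, 456, 463 and 557. Tox was at 606, 658, 634 and 676 CPM.

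**Figure D3:**
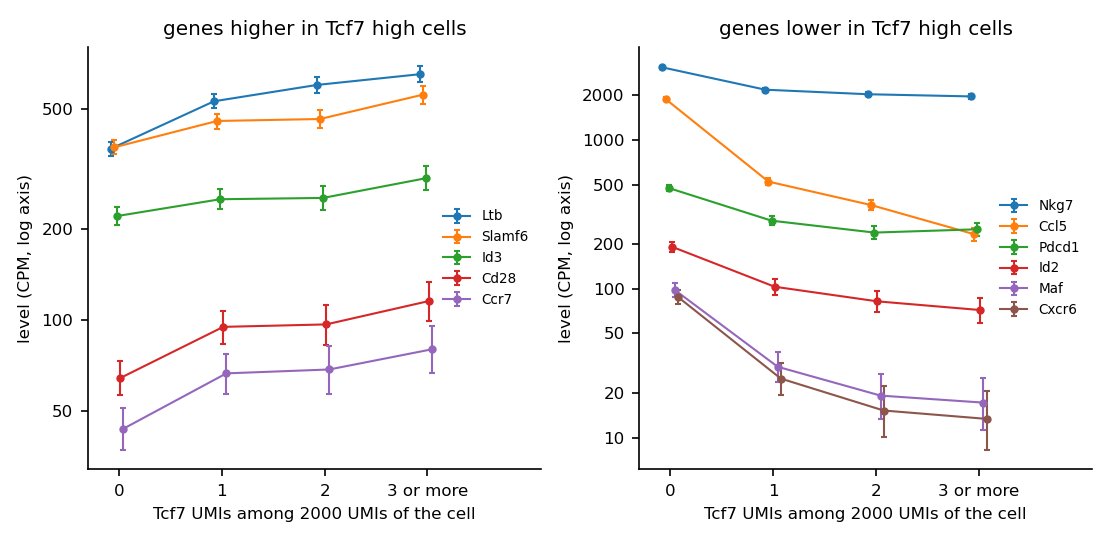
Level of 11 genes (y axis, CPM, log axis) by Tcf7 UMIs among 2000 UMIs of a cell (x axis), with 95% Poisson intervals. In the left panel Ltb is at 369 CPM at 0 and 651 CPM at 3 or more Tcf7 UMIs, and in the right panel Ccl5 is at 1877 and 232 CPM at the same ends.

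The groups held different TRB families. A productive TRB was found in 1036 Tcf7 high cells (44.4%, 42.3 to 46.4) and 689 Tcf7 undetected cells (49.8%, 47.2 to 52.5). The largest family, which pairs TRBV15 with TRBJ1-1, made up 14.4% of the Tcf7 high cells with a TRB (149 cells, 12.3 to 16.7) and 36.3% of the Tcf7 undetected cells with a TRB (250 cells, 32.7 to 40.0). Counted by the TRB of most UMIs, as families 2, 3 and 6 are here, family 1 made up 12.7% and 35.8% of the same cells. This family was known to be low in Tcf7 before the groups were set, so its shares restate that low level. Family 2 was distributed the other way. It made up 26.5% of Tcf7 high cells with a TRB (23.9 to 29.3) and 14.4% of Tcf7 undetected cells with a TRB (11.8 to 17.2). Family 3 made up 4.15% of Tcf7 high and 8.999% of Tcf7 undetected cells with a TRB, and family 6 made up 4.73% and 0.581% of the same cells. With the largest family left out, families of 1 or 2 cells were 14.3% of Tcf7 high cells with a TRB (12.1 to 16.8). They were 12.3% of such Tcf7 undetected cells (9.38 to 15.7), so their shares overlapped within counting error.

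Seen by family, 13 families had at least 30 cells when each cell was counted by its TRB of most UMIs. Their Tcf7 level ranged from 371 CPM in family 1 (339 to 405) to 988 CPM in family 6 (852 to 1140), with a median of 621 CPM. Every family's interval overlapped that of its neighbour in the order, and differences between neighbours were not tested. Tcf7 high cells were 79.0% of family 6, 56.8% of family 2, 42.5% of family 4, 34.7% of family 3 and 26.9% of family 1. Levels and shares come from the same Tcf7 counts, and the low level of family 1 was known beforehand. Families 5 and 13 are not independent, since 24 of 33 cells of family 13 also carried the TRB of family 5, and families 3 and 12 share cells likewise. Over the 13 families, among 3806 genes compared, the levels most like Tcf7 included those of Tmsb10 (Pearson r 0.93 on log2 of CPM plus 20), Clec2i (0.87) and Ms4a4c (0.82), and the most opposed were Ern1 (-0.88), 2010111I01Rik (-0.88), Prdx1 (-0.88) and Nkg7 (-0.86). All families come from the same library, and these values are a description.

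**Figure D4:**
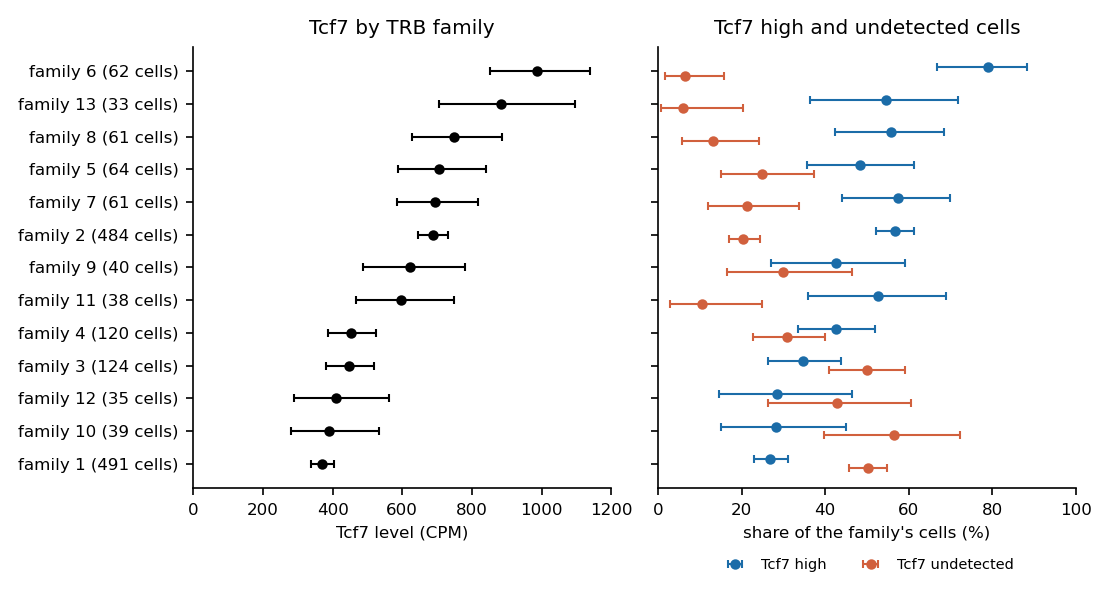
Left, Tcf7 level (x axis, CPM) in 13 TRB families (y axis, with their numbers of cells); right, share of each family's cells (x axis, percent) that were Tcf7 high or Tcf7 undetected. Lines are 95% intervals. Tcf7 high cells make up 79.0% of family 6 at the top and 26.9% of family 1 at the bottom.

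Because the largest family was known to be low in Tcf7, its own genes could enter the comparison. The comparison was therefore repeated on the 887 Tcf7 high and 439 Tcf7 undetected cells that carried a TRB other than the largest family's. Of 3276 genes with enough UMIs there, 43 were higher (1.31%) and 64 lower (1.95%). The median fold was 1.00. Lower genes were shared more than higher ones in number, as 39 genes were lower in both comparisons, 27.3% of the 143 and 60.9% of the 64, and 10 were higher in both, 13.5% of the 74 and 23.3% of the 43. Fewer cells leave fewer genes to compare, and of the 74 and 143 genes, 19 and 49 had enough UMIs outside the family. These cells are part of the cells of the first comparison, so the 2 results are not independent.

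Outside the largest family, 3 of 8 measured granule and death genes were lower in Tcf7 high cells and 1 higher, the lysosomal membrane gene Lamp1 at 177 CPM in high and 110.1 CPM in undetected cells (1.61, 1.33 to 1.96). Of 12 measured effector and exhaustion factors 2 were lower, of 8 inhibitory receptors 3, and of 4 cytokine and chemokine genes 1 was lower and 1 higher. Ccl5 was at 358 CPM in Tcf7 high cells and 3155 CPM in Tcf7 undetected cells (0.113, 0.106 to 0.122). Pdcd1 was at 256 CPM in high and 562 CPM in undetected cells (0.455), Nkg7 at 1957 CPM in high and 3479 CPM in undetected cells (0.563), Id2 at 71.0 CPM in high and 239 CPM in undetected cells (0.297) and Lag3 at 185 CPM in high and 349 CPM in undetected cells (0.531). Among the 149 Tcf7 high and 250 Tcf7 undetected cells of the largest family, Id2 was close at 199 CPM in high and 229 CPM in undetected cells (0.868, 0.660 to 1.14) and Lag3 at 371 CPM in high and 408 CPM in undetected cells (0.910, 0.745 to 1.11), while Pdcd1 was at 317 CPM in high and 609.9 CPM in undetected cells (0.519). In the cells outside the largest family, the 10 measured stem-like receptors had a median fold of 1.251, with 2 past 1.5-fold. The 9 stem and memory factors measured outside it had a median fold of 1.22, with none past 1.5-fold. Ccr7 was at 66.3 CPM in high and 53.8 CPM in undetected cells with an interval that spans 1 (0.925 to 1.66). Of the granule genes, Ctla2a had a fold of 0.835 there (0.678 to 1.03). Ltb, at 601 CPM in high and 385 CPM in undetected cells, kept a fold of 1.56, Cd28 one of 1.55 and Slamf6 one of 1.47. Genes that ranked highest there included Gpatch8 (2.09, 1.45 to 3.10), Pydc3 (2.00) and Cldnd1 (1.81), and among the lowest were Lgals3, which encodes galectin-3 (0.496), and the long noncoding transcript AW112010 (0.526). Cd74 stood at the top with 2.56, and 152 of its 183 UMIs in Tcf7 high cells there were in 1 barcode that also had B cell genes.

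A list of 12 genes had been picked in earlier work on these cells as markers of the largest family, and 9 of the 11 with enough UMIs were lower in Tcf7 high cells, with a median fold of 0.383. Esm1, an endothelial-type proteoglycan gene among them, was at 23.0 CPM in high and 52.7 CPM in undetected cells (0.436) in all cells. Outside the family Esm1 was under the UMI minimum, at 14.7 CPM in high and 13.2 CPM in undetected cells (1.11, 0.610 to 2.12). Maf was at 14.0 CPM in high and 64.6 CPM in undetected cells outside it, a fold of 0.217, with fewer UMIs there than the minimum. These markers were chosen on the same cells and are no independent evidence of direction.

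Within families the difference varied from family to family. The 4 families with at least 20 cells in each group were family 1 (132 Tcf7 high and 247 Tcf7 undetected cells, by the TRB of most UMIs), family 2 (275 high and 99 undetected), family 3 (43 high and 62 undetected) and family 4 (51 high and 37 undetected). Some cells of the other families also carried the TRB of family 1 as a second chain, 11 in family 2 and 3 in family 4 among all kept cells, and were left in. In family 2 some of the genes lower elsewhere were close between the groups, with Pdcd1 at 219 CPM in high and 211 CPM in undetected cells (1.04, 0.771 to 1.42) and Nkg7 at 2142 CPM in high and 2315 CPM in undetected cells (0.925, 0.845 to 1.01), while Ccl5 was at 163 CPM in high and 273 CPM in undetected cells (0.599). Family 3 showed the widest gaps of the 4 for Ccl5, Pdcd1 and Nkg7, with Ccl5 at 181 CPM in high and 4093 CPM in undetected cells (0.0442, 0.0291 to 0.0645) and Pdcd1 at 252 CPM in high and 982 CPM in undetected cells (0.257). In family 1, Pdcd1 was at 321 CPM in high and 605 CPM in undetected cells (0.531) and Nkg7 at 2176 CPM in high and 3711 CPM in undetected cells (0.586). Family 4 had Pdcd1 at 168 CPM in high and 494 CPM in undetected cells (0.341) and Ccl5 at 1691 CPM in high and 7320.2 CPM in undetected cells (0.231). For Nkg7 and Pdcd1 the interval of family 2 overlapped none of family 1 or family 3, and whether families differ beyond counting error was not tested. Of the 20 genes with the highest folds in all cells, 7 were above 1 in all 4 families, and of the 15 with the lowest, 8 were below 1 in all 4. Cells of these families were part of the ranking, and no share over all measured genes is given for comparison. The counts are therefore a description only.

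**Figure D5:**
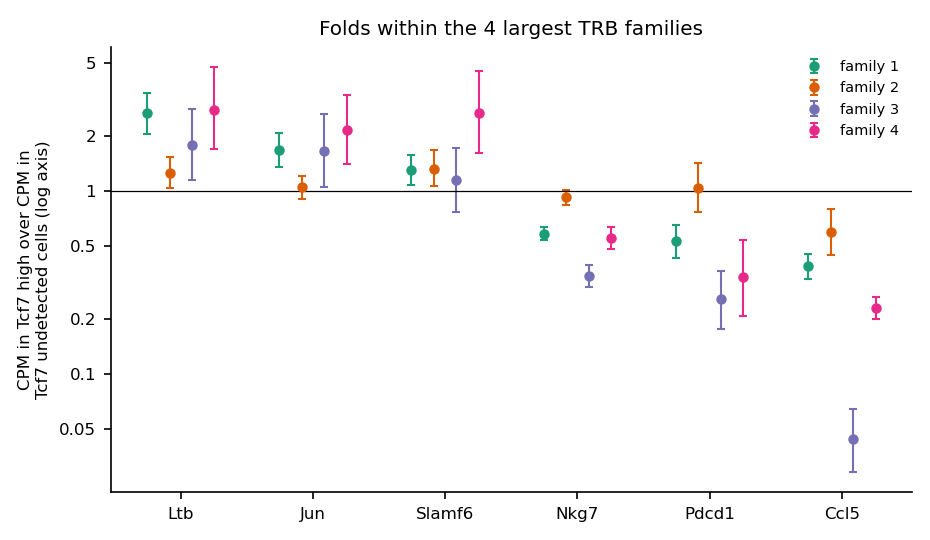
Fold of 6 genes (y axis, CPM in Tcf7 high over CPM in Tcf7 undetected cells, log axis) within the 4 largest TRB families (colours), with 95% counting intervals. Family 2 lies near 1 for Nkg7 (0.925) and Pdcd1 (1.04), while family 3 reaches 0.0442 for Ccl5.

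TCF-1 and LEF-1 bind the core letters CTTTGA and CTTTGT, searched here on both strands (TCAAAG and ACAAAG read the other way) in RefSeq promoters of 300 bases, from 250 before to 50 after each gene start (GRCm38.p6). At least 1 match was present in 31.2% of all 32851 promoters and in 23.1% of those of measured genes that matched the table. Promoters of the highest-ranked genes held one in 7 of 17 (41.2%), for the 15 of 20 genes that matched, and those of the lowest-ranked genes also in 7 of 17 (41.2%), for 10 of 15, where 2 of the 7 are Tox2 promoters whose starts lie next to each other and share 1 match. Promoters of all genes past 1.5-fold held one in 21 of 70 for those higher and 35 of 142 for those lower. A promoter from each side is shown with its matches in capitals, for Bcl6 (higher, chr16:23981234-23981533, minus strand) and Cxcr6 (lower, chr9:123806227-123806526, plus strand). The other annotated Bcl6 promoter held no match.
Bcl6: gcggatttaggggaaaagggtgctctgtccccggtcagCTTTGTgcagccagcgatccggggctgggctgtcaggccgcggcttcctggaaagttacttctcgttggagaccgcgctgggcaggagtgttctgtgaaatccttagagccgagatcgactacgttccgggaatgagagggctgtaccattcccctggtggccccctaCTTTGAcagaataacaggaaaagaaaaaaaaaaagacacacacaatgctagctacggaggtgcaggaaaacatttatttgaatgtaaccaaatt
Cxcr6: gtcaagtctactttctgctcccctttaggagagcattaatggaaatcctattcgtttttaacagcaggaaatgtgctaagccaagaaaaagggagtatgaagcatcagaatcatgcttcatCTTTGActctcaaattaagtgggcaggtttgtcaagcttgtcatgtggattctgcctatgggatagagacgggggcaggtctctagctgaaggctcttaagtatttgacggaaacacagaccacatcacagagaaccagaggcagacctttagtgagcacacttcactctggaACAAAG
A match is a description of sequence, not a binding site. The Tcf7 promoters themselves, from 2 annotated starts, held none in this window.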

How the data were processed

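RNA and V(D)J sequences were read from 1 sort of GD2TIF cells. The authors deposited raw UMI counts per gene and barcode, and UMI counts per assembled TCR contig. Tools in the submitters' processing notes, listed without role or order, are STAR 2.6.1a, cutadapt 1.17 and featureCounts 2.0.1, with the build GRCm38. The tool that assembled the contigs is not named there. Doublets were not called, and 7.53% of kept cells with a TRB carried 2 or more. Kept cells held 14381683 UMIs, 2047 to 5138 per cell between the 5th and 95th percentiles.

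Counts were summed over the cells of a group and scaled to CPM. Sums have exact Poisson intervals, folds exact conditional intervals and shares Clopper-Pearson intervals. The step was tested on simulated Poisson counts of the summed groups. The simulation leaves out the gathering of a gene's UMIs in few cells, so it does not test the intervals for such genes. Thinning drew 2000 UMIs per cell without replacement. A cell belonged to the largest TRB family where any productive TRB had that family's CDR3, which gave 518 cells; this rule set the cells outside it. The 13 numbered families and the folds within them went by the TRB of most UMIs alone, which gave family 1 491 cells. TCR segment, immunoglobulin, mitochondrial, ribosomal protein and haemoglobin genes were not ranked.

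Every gene of 25 lists may be named, with the 20 highest and 15 lowest folds in all cells and outside the largest family, and the 5 genes most like and most opposed to Tcf7 over families. Some listed or ranked genes are not reported here. Members and lists were chosen with earlier results of these data known. Alternatives changed the depth minimum, the Tcf7 threshold, the scaling, the gene minimum, the fold and the cells left out. Values were computed in Python 3.11.15 (pandas 2.3.3, scipy 1.17.1, numpy 2.4.6) and drawn with matplotlib 3.10.9.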

Additional observations from a re-analysis of the deposited data

How the results depend on the processing

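The share of cells on each side follows the depth and the threshold. Tcf7 high cells were 34.9% with each cell thinned to 2000 UMIs first, 42.0% from 1500 UMIs per cell, 60.7% from 3000, 29.9% at 3 Tcf7 UMIs and 47.2% without the 5% of cells with most UMIs. Tcf7 undetected cells were 37.9%, 34.0% and 20.3% under the first 3 of these. The largest family made up 12.2% of Tcf7 high cells with a TRB at 3 Tcf7 UMIs and 12.1% from 3000 UMIs per cell, and stayed within its interval in the other settings run.

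Thinning to 2000 UMIs first left 34 genes higher and 75 lower, and 7 and 24 outside the largest family. The minimum of 200 UMIs per gene was applied after thinning, so fewer genes could qualify. These numbers are therefore not shares of the genes compared before. Standardised over strata of UMIs per cell, 99 genes were higher and 178 lower, and 64 and 83 outside the family. A changed minimum per gene also changes how many genes are compared. With 50 UMIs per gene the counts were 297 and 492, and 368 and 417 outside the family. With 500 they were 26 and 60, and 5 and 25. With a fold of 5 to 4 as the threshold they were 416 and 580, and 269 and 287. Outside the family 26 genes were higher at 3 Tcf7 UMIs, 85 from 3000 UMIs per cell, and 26 without cells with 2 of Ccl3, Ccl4, Cxcr6 and Gzma, an alternative added after the data had been seen. Gene counts in the other settings stayed within 1.5 times.

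Of 72 named genes past 1.5-fold, all 72 kept their direction under 12 of the 15 settings that recompute every one of them. After thinning, 54 stayed past it, and standardised over strata of UMIs per cell, 70 did. Among cells with another TRB, Cd74 (2.56), Esm1 (1.11) and Pms1 (1.13) lay above 1, and as a mean over families Apex1 lay at 0.714. Without barcodes with 3 markers of another type, Cd74 was at 1.03, Hba-a2 at 1.62, Hbb-bs at 1.60 and the erythroid median at 1.26. Without the barcodes with B cell genes and the haemoglobin-rich one, added after the data had been seen, Cd74 was at 1.03, Hba-a1 at 1.36, Hba-a2 at 3.0, Hbb-bs at 2.15, Hbb-bt at 1.00 and the erythroid median at 1.75. With 1 library no replicate could be left out, and no paired analysis was possible because each library stands alone. The spread between mice is unknown, and genes under 200 UMIs are not resolved.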

Other observations

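Glycolysis, Bcl2 family and quiescence genes held none past 1.5-fold between Tcf7 high and Tcf7 undetected cells. None of 12 measured glycolysis genes passed 1.5-fold (median fold 0.962), and Gapdh was at 904 CPM in high and 946 CPM in undetected cells. None of 9 measured Bcl2 family genes did either (0.999), and Bcl2 was at 319.6 CPM in high and 319.9 CPM in undetected cells. Of 12 quiescence and cell cycle brake genes, 11 had folds above 1 and none passed 1.5-fold (median 1.168). Outside the largest TRB family, 6 of 10 measured were above 1 (median 1.02). Among 10 measured interferon-inducible genes, Isg15 was lower, at 24.6 CPM in high and 40.6 CPM in undetected cells (0.605, and 0.724 after thinning to 2000 UMIs), and the list's median was 1.06. Cholesterol synthesis genes were mostly under the minimum, and of 3 measured genes of the mevalonate pathway Mvd was lower, at 33.1 CPM in high and 89.3 CPM in undetected cells (0.370, 0.313 to 0.437), and the median of the 3 was 0.771. Within the largest TRB family Mvd was at 217 CPM in high and 309 CPM in undetected cells. Outside that family Mvd was under the UMI minimum, at 7.89 CPM in high and 14.1 CPM in undetected cells. Cycling genes were near absent from both groups, with 2 of 10 measured and neither past 1.5-fold. Of these, Stmn1 was at 27.7 CPM in high and 20.6 CPM in undetected cells (1.35), and Tyms had a fold of 0.779. Top2a, under the UMI minimum, had 72 UMIs in Tcf7 high cells and 84 in Tcf7 undetected cells, a fold of 0.432 (0.311 to 0.599).

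The integrin gene Itgam, listed here as a myeloid marker and also carried by activated CD8 T cells, had 13 UMIs in Tcf7 high cells and 80 in Tcf7 undetected cells, although Lyz2 and Csf1r, which define myeloid cells, had 1 UMI each in Tcf7 high cells and 0 in Tcf7 undetected cells.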
